A study of Mus musculus with 9 samples.

Results

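The 10 genes described here encode the cone opsins and the cone forms of the proteins that carry a light signal inside the cell: Opn1mw, Opn1sw, Arr3, Gnat2, Gnb3, Gngt2, Pde6c, Pde6h, Cnga3 and Cngb3. They were chosen by name, as the rows of the deposited gene count table that carry these symbols. Earlier results of these data were known when they were chosen. All 10 were found among the 55414 genes of the table, and all 10 passed the filter on low counts that left 17272 genes for testing. The table comes from bulk RNA-seq of retina from Balb/c mice, an albino strain, with 3 libraries in each of 3 groups: control retina, retina after light damage, and retina after light damage in mice given A74. The design text names A74 as the protective agent under study, and the series title is about blocking P2RX7, a channel opened by ATP, in retinal degeneration caused by light. The dose and route of A74, any vehicle, the length of the light exposure, the age of the mice and the number of mice behind a library are not stated in the labels. Nor do the labels say that the libraries of a group came from separate mice, and p-values therefore reflect only the spread among these libraries, which may be technical.

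Cones are the photoreceptors of daylight and colour vision, and in the mouse retina they are far outnumbered by rods. In a cone, light changes the shape of an opsin, the opsin activates the G protein transducin, transducin releases the brake on the phosphodiesterase PDE6, and the fall in cyclic GMP closes the channels through which the cell is depolarised in darkness. Arrestin then binds the spent opsin and ends the response. Rods use the same chain built from their own gene copies, and the 9 rod counterparts used here are Sag for Arr3, Gnat1 for Gnat2, Gnb1 for Gnb3, Gngt1 for Gngt2, Pde6a and Pde6b for Pde6c, Pde6g for Pde6h, Cnga1 for Cnga3 and Cngb1 for Cngb3. Gnb1 is also made in many other cells, and Gnb3 also in ON bipolar cells, the interneurons that respond to the onset of light.

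Library totals ran from 14787972 to 18740434 counts, and single members from 164 counts in a library (Cnga3) to 11162 (Gnb3). Levels are given as CPM, the counts of a gene per 1000000 counts of its library, with each library scaled by its TMM factor, a correction for differences in RNA composition. Differences are log2 ratios from edgeR's quasi-likelihood test on all 9 libraries, with the standard error (SE). Adjusted p-values are Benjamini-Hochberg values over the 17272 genes, and a gene was called changed at an adjusted p under 0.05. The libraries differ in ways the groups do not explain. Genes of anterior eye tissue summed to 138 to 275 CPM in 5 libraries (control 1 and 2, light damage 1 and 2, and A74 1) and to 12.5 to 15.9 CPM in the other 4. Y-linked genes had 4249 to 5832 counts in control 1 and 2 and light damage 1 and 2, and 0 in the other 5 libraries. Xist, the RNA that coats a silenced X chromosome, was at 22253 counts for control 3, 17227 to 18172 for the A74 libraries and 1 to 7 for the rest, light damage 3 included. No light damage library is thus like an A74 library in its Xist level.

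The promoters of 4 members are shown, chosen by how their libraries lay after light. Arr3 and Opn1mw lie on the X chromosome and were lower in every light-damaged library than in every control library. For Opn1mw the groups nearly touch, with light damage 3 at 82.58 CPM and control 1 at 82.73 CPM. For Opn1sw and Gnat2 the groups overlapped. Each line holds the 150 bases before the annotated start, 5′ to 3′ on the gene's strand, from RefSeq on GRCm38.p6. Capitals mark TAATCC or TAATCT on either strand (GGATTA or AGATTA on the other), the core letters bound by CRX-type homeodomain factors of photoreceptors.
Arr3, chrX:100605347-100605496, plus strand: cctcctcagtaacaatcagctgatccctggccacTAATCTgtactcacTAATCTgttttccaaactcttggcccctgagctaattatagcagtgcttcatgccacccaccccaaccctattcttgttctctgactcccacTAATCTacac
Opn1mw, chrX:74127316-74127465, plus strand: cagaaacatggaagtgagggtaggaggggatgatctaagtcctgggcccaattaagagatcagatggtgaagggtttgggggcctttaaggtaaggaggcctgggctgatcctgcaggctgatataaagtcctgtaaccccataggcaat
Opn1sw, chr6:29380514-29380663, minus strand: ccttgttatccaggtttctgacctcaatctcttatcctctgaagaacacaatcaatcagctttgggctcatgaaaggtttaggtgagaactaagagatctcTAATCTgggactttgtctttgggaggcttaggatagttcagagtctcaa
Gnat2, chr3:108092916-108093065, plus strand: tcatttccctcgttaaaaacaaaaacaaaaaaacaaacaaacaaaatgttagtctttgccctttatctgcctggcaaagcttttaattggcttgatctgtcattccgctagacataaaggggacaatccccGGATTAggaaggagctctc
The Arr3 window holds TAATCT 3 times, the Opn1sw window holds it 1 time, the Gnat2 window holds TAATCC on the opposite strand, and the Opn1mw window holds neither but has a TATAAA 1 time. Among 32851 promoter windows of the same length, TAATCC was present in 3.6%, TAATCT in 3.97% and TATAAA in 7.57%. Of the 10 members, 6 had an entry and 3 of these held a TAATCC or TAATCT. Pde6h, called higher with light damage, and Cnga3 also had entries, which are not shown and held neither. None of the 4 members shown was called in light damage against control with all 9 libraries in the fit and no added term. A match is a description of the letters, and no binding was measured.

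Light damage was compared with control to ask what happened to cone transcripts beside those of rods. Levels of 3 of the 10 cone genes rose: the transducin subunits Gnb3 and Gngt2, and Pde6h, the inhibitory subunit of the cone phosphodiesterase. No member fell by the edgeR test (0 of 10). At an unadjusted p under 0.05 edgeR gave 3 higher and 2 lower, and DESeq2 called 3 higher and 0 lower. Over all genes tested, 25.8% were called in this comparison, 13% higher and 12.8% lower, so 3 of 10 is close to the share of all genes. The members' median log2 difference was -0.08 and that of all genes 0.01, and 7 of the 10 estimates were below 0.

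Neither of the opsins, the light-sensing proteins themselves, was called with all 9 libraries in the fit, and they were not tested against each other. Opn1mw, the middle-wavelength opsin, stood at 82.7, 88.3 and 90.5 CPM in control and at 63.3, 82.4 and 82.6 CPM in light damage. Every light-damaged library was below every control library, but light damage 3, at 82.58 CPM, lay just below control 1, at 82.73 CPM. Light damage 1 was well apart from the other light damage libraries. The log2 difference of Opn1mw was -0.20 (SE 0.09, 95% interval -0.38 to -0.01, edgeR adjusted p = 0.111). With the replicate number as a block, a pairing that the labels do not state, it was also -0.20 and the gene was called (edgeR adjusted p = 0.0394). Without light damage 1 it was -0.069 (edgeR adjusted p = 0.519), and without light damage 3 it was -0.25 and called (0.0435). Opn1sw, the short-wavelength opsin, had 482, 437 and 437 CPM in control and 365, 523 and 436 CPM in light damage. Light damage 1 was the lowest and light damage 2 the highest of these 6 libraries, so the groups overlapped on both sides. Its log2 difference was -0.03 (95% interval -0.29 to 0.22, edgeR adjusted p = 0.867), which allows a loss or gain of that size. The counts of Opn1sw were 4.83 to 5.82 times those of Opn1mw in control and 5.28 to 6.34 times in light damage, ranges that overlap and that are not corrected for transcript length.

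Arr3, cone arrestin, had 232, 235 and 329 CPM in control and 178, 192 and 216 CPM in light damage. All 3 light-damaged libraries lay below all 3 control libraries, and control 3, the control library with Xist, was the highest. The mean went from 266 ± 55.2 to 195 ± 19.5 CPM (SD, n = 3 each), a log2 difference of -0.44 (SE 0.16, 95% interval -0.82 to -0.07) that did not pass the test (edgeR adjusted p = 0.0839). With the replicate number as a block, which pairs control 3 with light damage 3, the difference was -0.43 and passed (edgeR adjusted p = 0.000377). With a term for Y-linked counts, entered only as present or absent, it was -0.43 and passed (edgeR adjusted p = 0.0023). That term sets control 3 and light damage 3 alike, although their Xist counts were 22253 and 1. Within the libraries high in anterior tissue genes (2 against 2) the difference was -0.34, and within those low in them (1 against 1) it was -0.61. The part of X-chromosome dosage in the Arr3 level was not tested.

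Transducin gave the clearest increases. Gnb3, the beta subunit, stood at 369, 361 and 392 CPM in control and at 553, 580 and 506 CPM in light damage, with a wide gap between the groups. Its mean rose from 374 ± 15.9 to 547 ± 37.5 CPM (SD, n = 3 each), a log2 difference of 0.55 (SE 0.10, edgeR adjusted p = 0.00204). Gngt2, the gamma subunit, rose from 22.5, 22.4 and 20.8 CPM to 30.9, 38.1 and 28.5 CPM, a log2 difference of 0.57 (SE 0.10, edgeR adjusted p = 0.00074). Gnat2, the alpha subunit that binds GTP and activates PDE6, did not move with its partners. It had 186, 170 and 160 CPM in control and 143, 181 and 170 CPM in light damage, groups that overlap, with a log2 difference of -0.06 (95% interval -0.23 to 0.11, edgeR adjusted p = 0.623).

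Markers of other cells were read beside these increases. Summed markers of microglia and macrophages, the immune cells of the retina, were 92.5 to 102 CPM in control and 263 to 445 CPM in light damage, and 16 of the 18 markers rose and 0 fell. Summed ON bipolar markers were 1816 to 1922 CPM in control and 1851 to 1959.9 CPM in light damage, and 4 of the 12 rose and 0 fell, among them Gng13, a G protein gamma subunit (log2 difference 0.61), the Purkinje cell protein gene Pcp2 (0.48) and the transcription factor Isl1 (0.21). The Isl1 call was lost without control 1 (edgeR adjusted p = 0.0556), control 2 (0.127), light damage 1 (0.117) or light damage 2 (0.0548). The 12 bipolar markers did not move as one: 7 of their estimates were above 0 and 5 below, and the median was 0.06. The lowest, at -0.61, was that of Lrit3, with 41.7 to 51.1 CPM in control and 24.1 to 40.7 CPM in light damage. Every marker of both lists had counts in every library. As a percentage of the control mean, light damage 1, 2 and 3 had ON bipolar sums of 105, 102 and 98.8% and microglial sums of 457, 372 and 271%. The part of either cell type in the Gnb3 and Gngt2 levels was not tested. The exons of Gngt2 overlap those of Abi3, on the opposite strand, by 137 bases in GENCODE M21, and the strand setting of the counting is not given in the sources used here, so reads of the pair cannot be told apart there. Abi3 itself was counted at 0.359 to 0.988 CPM in the 9 libraries, far below Gngt2. Opn1sw shares 5 exonic bases with Calu in the same way.

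**Figure D1:**
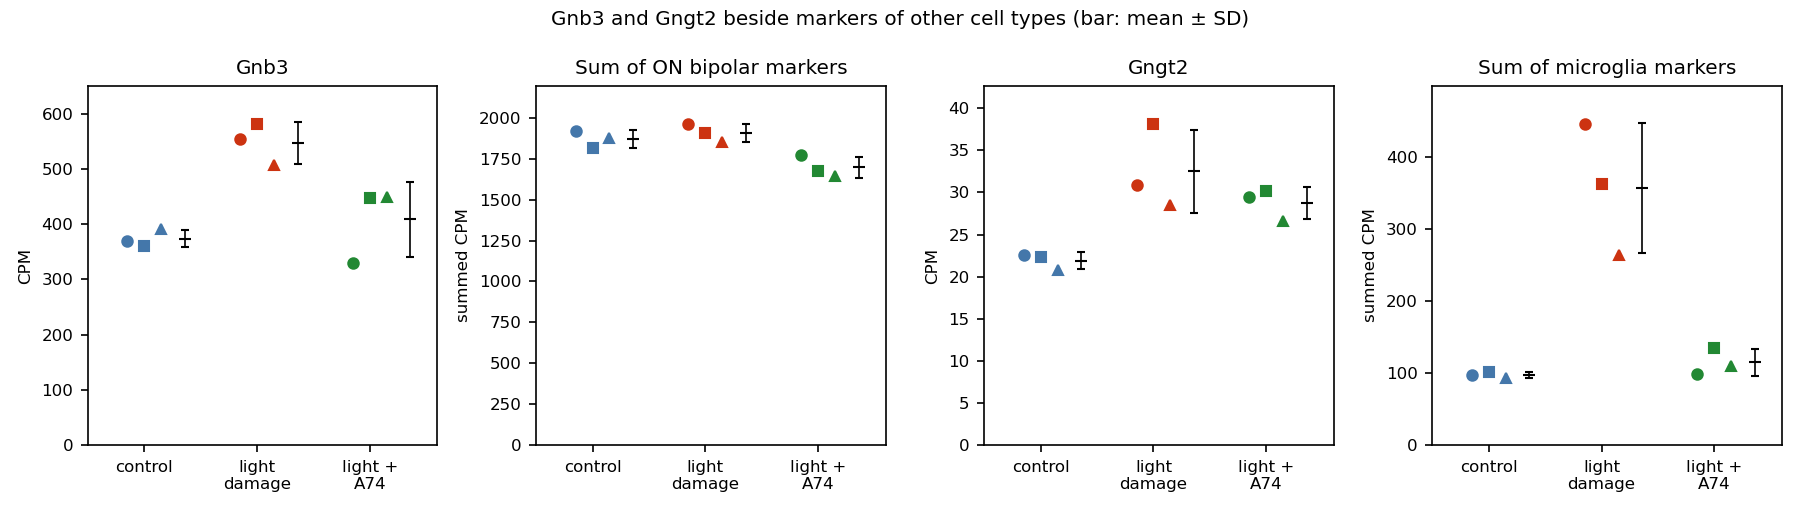
CPM of Gnb3 and Gngt2 and summed CPM of ON bipolar and microglial markers (vertical axes, linear, from 0) in each library of the 3 groups (points), with the group mean ± SD in black. Microglial markers reach 263 to 445 CPM in light damage against 92.5 to 102 CPM in control, and ON bipolar markers stay within 1647 to 1959.9 CPM in all 9 libraries.

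Of the phosphodiesterase subunits, 1 was called. Pde6h had 132, 131 and 126 CPM in control and 139, 175 and 169 CPM in light damage, which do not overlap. It rose by a log2 difference of 0.31 (SE 0.09, edgeR adjusted p = 0.0169), and the call was lost without control 3 (0.0647), without light damage 2 (0.0712) and without light damage 3 (0.0551). Pde6c, the catalytic subunit, had 42.7, 41.2 and 46.5 CPM in control and 35.4, 39.99 and 35.7 CPM in light damage. These groups do not overlap either, on the lower side, but the log2 difference of -0.23 did not pass (edgeR adjusted p = 0.231). Without A74 library 1, which enters only the shared estimate of spread, Pde6c was called lower (edgeR adjusted p = 0.0371).

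Neither subunit of the cyclic GMP-gated channel, whose closing is the cell's response to light, passed the test. Cnga3, the alpha subunit and the lowest of the members per length, had 17.2, 12.2 and 15.03 CPM in control and 9.87, 15.7 and 12.5 CPM in light damage, with a log2 difference of -0.22 (edgeR adjusted p = 0.349). Its groups overlap, with light damage 1 the lowest and control 1 the highest. Cngb3, the beta subunit, had 21.8, 23.5 and 23.2 CPM in control and 21.8, 21.3 and 20.6 CPM in light damage. Its log2 difference was -0.11 (95% interval -0.28 to 0.07, edgeR adjusted p = 0.389). The groups touch without overlapping, since control 1 lies just above light damage 1.

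Counted by whether the libraries of the groups overlap, 7 of the 10 members did not overlap between light damage and control, 3 higher and 4 lower. Over all genes tested this held for 40.6%, 20.6% higher and 20% lower. The replicate block changed the count of members called lower from 0 to 2 (Opn1mw and Arr3) and left the 3 higher. Over all genes the block gave 2271 lower and 2317 higher.

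**Figure D2:**
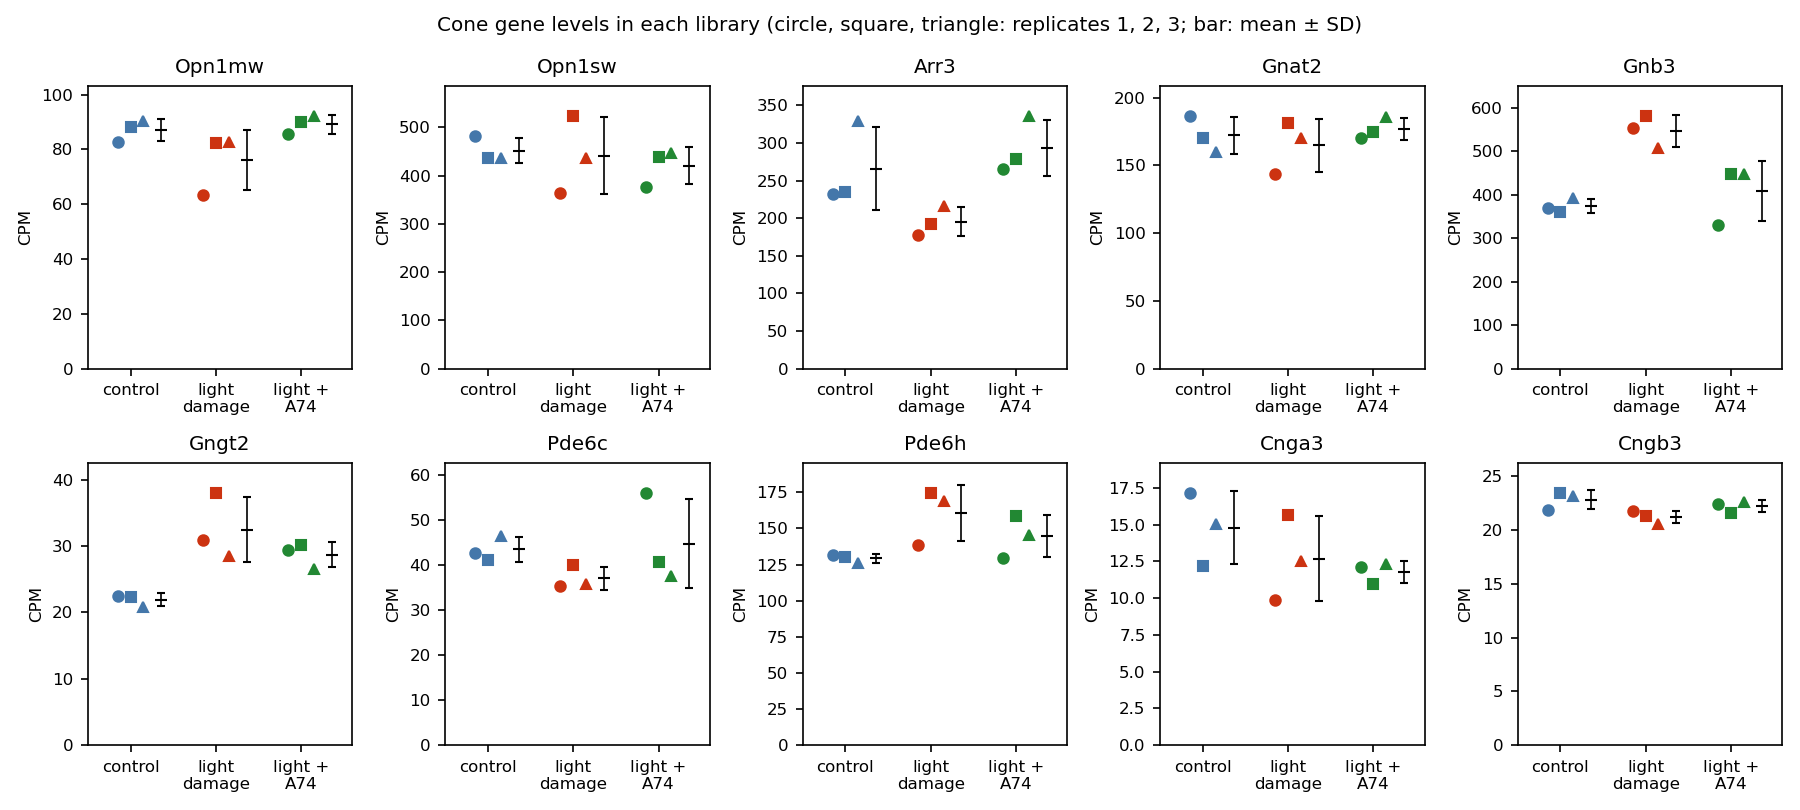
Level of each of the 10 cone genes in CPM (vertical axis, linear, each panel on its own scale from 0) in the 3 control, 3 light damage and 3 A74 libraries (points; circle, square and triangle for replicates 1, 2 and 3), with the group mean ± SD in black. Of the 10 genes, 7 do not overlap between light damage and control, with Gnb3, Gngt2 and Pde6h higher and 4 lower. Arr3 is lower in light damage than in either other group but was not called against control. Opn1sw and Gnat2 overlap in all 3 groups.

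Set beside the cone genes, of which 0 were called lower, 6 of the 9 rod counterparts fell with light damage and 0 rose, with a median log2 difference of -0.51. Leaving out each library in turn, 5 to 7 fell. In bulk retina, fewer cells of a type and less RNA per cell cannot be told apart, for rods as for cones. Gnat1, the rod transducin alpha subunit, was at 11974, 11671 and 11017 CPM in control and at 6685, 8540.0 and 9115 CPM in light damage. It fell by 0.51 on the log2 scale (edgeR adjusted p = 0.00337), with no overlap between the groups. Sag, rod arrestin, had a log2 difference of 0.11 (edgeR adjusted p = 0.450) and Gngt1, the rod gamma subunit, one of -0.04 (edgeR adjusted p = 0.843). Pde6b, a catalytic subunit of the rod enzyme, had the largest estimate of the 9, -0.89, and was not called (edgeR adjusted p = 0.0876). With the replicate number as a block it was -0.97 and called (edgeR adjusted p = 0.0342), which made 7 of 9 lower.

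Summed over the genes of each list, cone CPM was 1583 ± 59.2 in control and 1688 ± 155 in light damage, while rod CPM was 31791 ± 1397 in control and 23753 ± 4033 in light damage (SD, n = 3 each). The cone means thus differed by less than the light damage SD but by more than the control SD. The cone ranges overlapped and the rod ranges did not. Per library, light damage 1, 2 and 3 held 97.2, 117 and 106% of the control mean of the cone sum, and 61.9, 75.0 and 87.2% of that of the rod sum. The cone sum leans on Gnb3, which other cells also make: without it the same libraries held 81.5, 105 and 96.9%. The cone share of both sums was 4.61, 4.50 and 5.15% in control and 7.26, 7.19 and 5.70% in light damage. Leaving out Gnb3 and Gnb1, the shares were 4.45, 4.31 and 4.92% in control and 5.83, 6.14 and 5.00% in light damage, where light damage 3 lies barely above control 3.

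The cone genes other than the opsins were also set against their rod counterparts as a log2 ratio in every library, in 9 pairs and 27 tests over the 3 comparisons. An exact permutation test of 3 against 3 libraries cannot give a two-sided p under 0.1, which adjusts to 0.225 here, so none of these can pass. In light damage against control, 8 of the 9 ratios were higher, with a median difference of 0.59, and 6 did not overlap, 5 higher and 1 lower. Gnb3 to Gnb1 differed most, by 1.06, followed by Pde6c to Pde6b at 0.74 and Pde6h to Pde6g at 0.68. Arr3 to Sag was the exception, lower by 0.53 with no overlap.

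**Figure D3:**
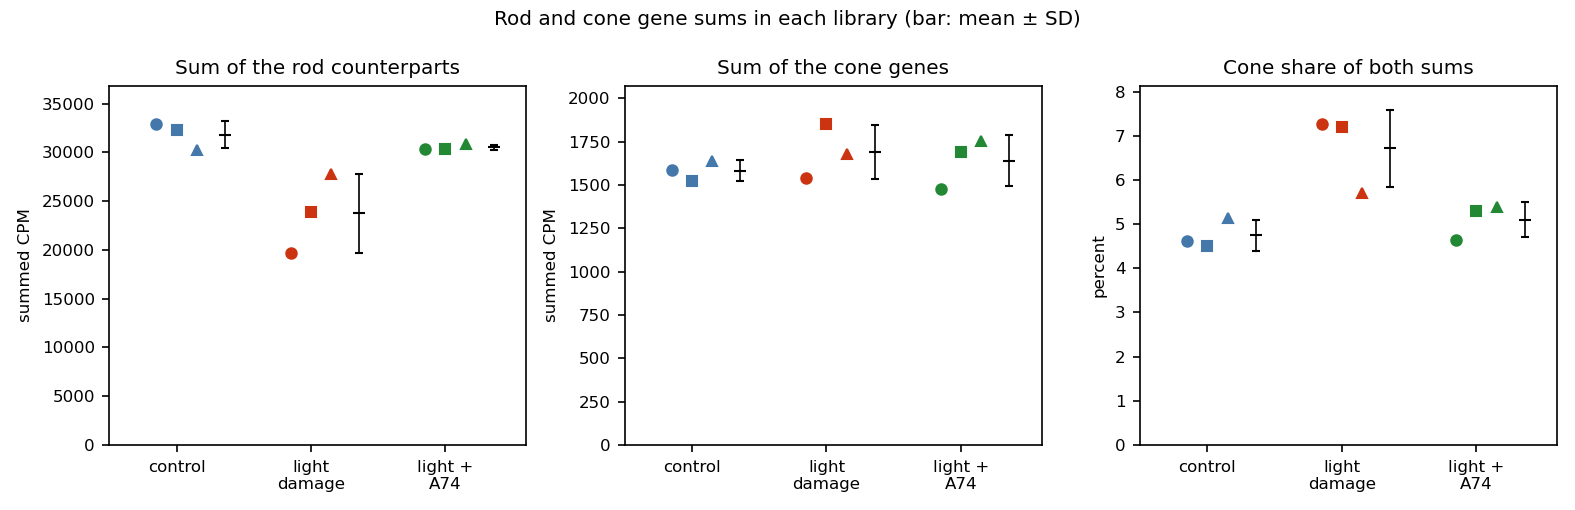
Summed CPM of the 9 rod counterparts and of the 10 cone genes, and the cone share of both sums in percent (vertical axes, linear, from 0), for each control, light damage and A74 library (points), with the group mean ± SD in black. The rod sum is lowest in the light damage libraries, between 19668 and 27731 CPM, and the cone share is highest there, between 5.70 and 7.26%.

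Other genes of cones and of shared photoreceptor pathways were counted in the same way, with no call on the higher side. Of 7 further cone genes, 1 fell and 0 rose in light damage: Thrb, the thyroid hormone receptor that directs middle-wavelength cone fate, with a log2 difference of -0.26 (edgeR adjusted p = 0.00965), which was -0.18 and not called without light damage 1 (0.0675). Of 13 transduction and shut-off genes that both photoreceptors use, 8 fell and 0 rose, among them the guanylate cyclase gene Gucy2e (-0.60), the potassium channel subunit gene Kcnv2 (-0.69) and Rgs9bp, the anchor of the protein that switches transducin off (-0.78). Of 8 photoreceptor transcription factors, 5 fell and 0 rose, among them Nrl, which directs rod fate (-0.67), Prdm1 (-0.65) and Rorb (-0.49).

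A74 with light damage was compared with light damage alone to ask how the 2 groups, which also differ in Xist level, stood apart. Of the 10 cone genes, 1 was called higher with A74 (Arr3, cone arrestin) and 1 was called lower (Gnb3, the transducin beta subunit). At an unadjusted p under 0.05 edgeR gave 2 higher and 1 lower, and DESeq2 called 1 and 1. Over all genes tested 18.3% were called, 9.07% higher and 9.19% lower, so the members' 2 of 10 is close to that share. The light damage libraries enter both this comparison and the previous one, so the 2 are not independent.

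Arr3 was at 265, 279 and 335 CPM with A74, above the 178, 192 and 216 CPM of light damage alone. The log2 difference was 0.59 (SE 0.16, edgeR adjusted p = 0.0427). The call rested on all 6 libraries: without 1 library at a time the adjusted p was 0.0573 to 0.188 in the 6 fits that leave out a library of these groups, and with a term for Y-linked counts the difference was 0.35 (edgeR adjusted p = 0.0827). Within the libraries high and low in anterior tissue genes the differences were 0.52 and 0.51. All 3 A74 libraries had 17227 or more Xist counts and the light damage libraries 1 to 4. Treatment and Xist state therefore cannot be told apart for any gene in this comparison. For X-linked genes such as Arr3, treatment and X-linked dosage cannot be told apart either. Opn1mw, also X-linked, had 85.5, 89.8 and 92.1 CPM with A74, above all 3 light damage libraries, with a log2 difference of 0.23 (SE 0.09, edgeR adjusted p = 0.0784). It was 0.11 without light damage 1 (0.332) and 0.29 and called without light damage 3 (0.0257).

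Gnb3 was at 330, 448 and 449 CPM with A74, below the 506 to 580 CPM of light damage alone. Its log2 difference was -0.42 (SE 0.10, edgeR adjusted p = 0.0134). Within the libraries high in anterior tissue genes it was -0.78 (1 A74 library against 2), and within those low in them it was -0.18 (2 against 1, edgeR adjusted p = 0.216). It lost the call with a term for Y-linked counts (-0.40, edgeR adjusted p = 0.134), without light damage 1 (0.0784) and without light damage 2 (0.0583). A74 libraries were also lower in microglial markers, 99.2 to 135 CPM with 17 of 18 called lower, and in ON bipolar markers, 1647 to 1771 CPM with 6 of 12 called lower, among them Isl1 (-0.46), Gng13 (-0.39) and the channel gene Trpm1 (-0.32). With a term for Y-linked counts Gng13 (edgeR adjusted p = 0.0884) and Trpm1 (0.0713) lost the call, and Isl1 kept it. The part of either cell type in the Gnb3 level was not tested.

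The other members did not pass with all 9 libraries in the fit. Opn1sw had 377, 439 and 446 CPM with A74 and a log2 difference from light damage of -0.07 (edgeR adjusted p = 0.725). Gnat2 had 170, 174 and 186 CPM and a difference of 0.10 (0.418). Gngt2 stayed at 29.5, 30.1 and 26.6 CPM, near its light-damaged level, with a difference of -0.18 (0.228). For the phosphodiesterase, Pde6c had 56.1, 40.7 and 37.5 CPM with a difference of 0.27 (0.177), where A74 library 1 alone stood high, and Pde6h had 129, 159 and 146 CPM with a difference of -0.15 (0.245), which was -0.25 and called without light damage 1 (0.0309). The channel subunits differed by -0.11 for Cnga3 (0.683) and 0.07 for Cngb3 (0.632), with 12.1, 10.9 and 12.4 CPM and 22.4, 21.6 and 22.6 CPM with A74. Libraries did not overlap for 2 members on the higher side and 1 on the lower side, against 17.5% and 17.7% of all genes tested, 35.2% in all.

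Among the rod counterparts, 6 of 9 were called higher with A74 and 0 lower, with a median log2 difference of 0.41, and Gnat1 differed by 0.47 (edgeR adjusted p = 0.00796). That count was 2 to 8 without 1 library at a time, 2 in a fit of these 2 groups alone and 0 with a term for Y-linked counts. Of the cone-to-rod ratios 8 were lower and 1 higher (Arr3 to Sag, 0.57), 6 without overlap, with a median of -0.44. Among the 13 shared transduction genes 7 rose and 0 fell, among them Kcnv2 (0.63) and Gucy2e (0.47), which lost the call with a term for Y-linked counts (0.0834 and 0.0900), and among the transcription factors 5 of 8 rose and 0 fell, led by Prdm1 (0.62). Of the other cone genes Thrb rose by 0.20 (edgeR adjusted p = 0.0484), a call lost in most alternatives (0.13 without light damage 1, 0.247, and 0.14 with the Y-linked term, 0.333), and Tbx2, a T-box transcription factor, fell by 0.35 on the log2 scale (edgeR adjusted p = 0.00187).

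**Figure D4:**
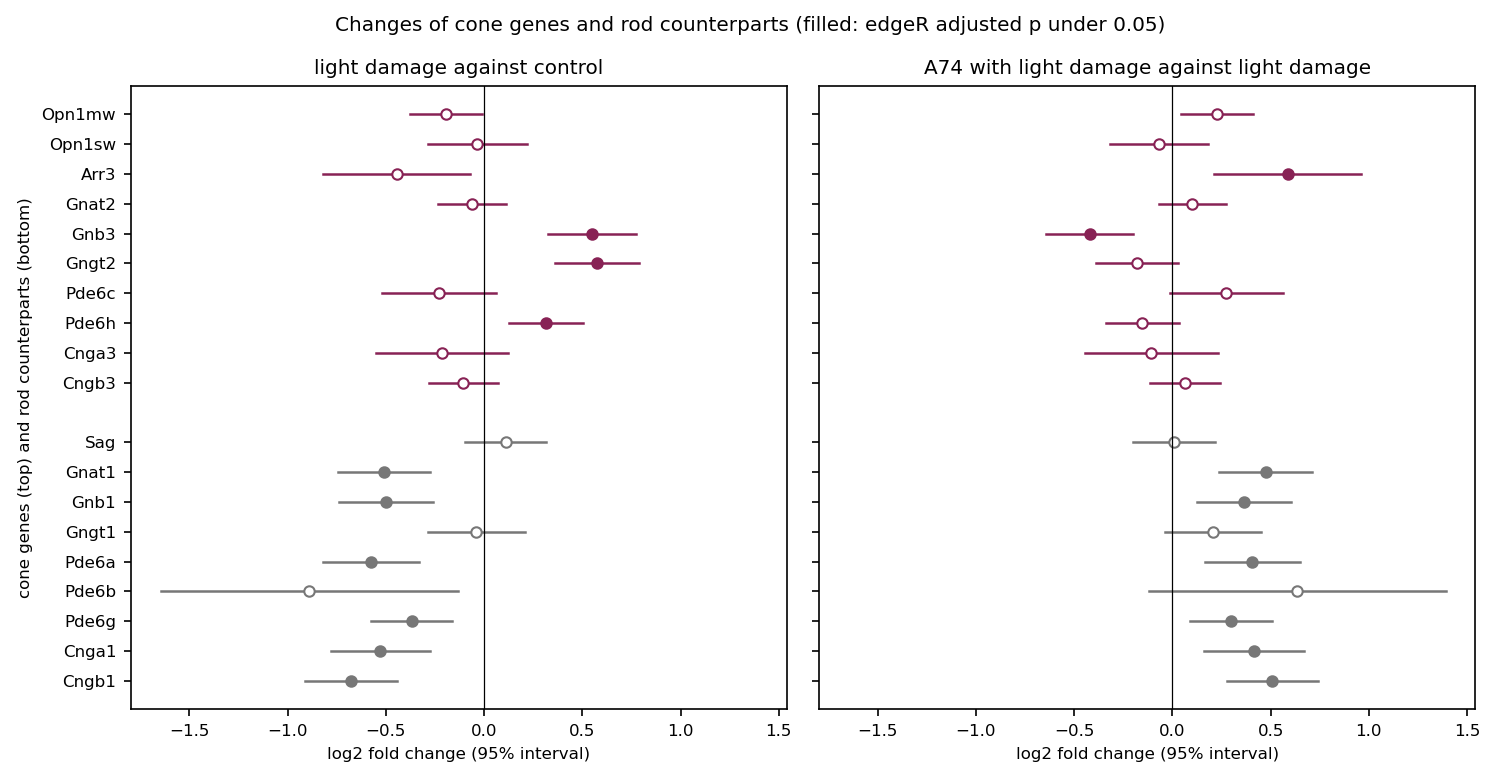
Log2 difference of each cone gene and of the 9 rod counterparts in light damage against control and in A74 with light damage against light damage (points are edgeR estimates, filled where called, bars are 95% intervals, and the vertical line marks 0). In light damage Gnb3, Gngt2 and Pde6h are the cone genes called higher, at 0.55, 0.57 and 0.31, while most rod counterparts lie below 0.

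A74 with light damage was set against control to see what difference was left. No member was called by edgeR, 0 higher and 0 lower. At an unadjusted p under 0.05 there was 1 higher and 0 lower, and DESeq2 called 0 and 0. Of all genes tested 0.892% were called here, 0.591% higher and 0.301% lower. The groups did not overlap for 1 of the 10 members, on the higher side, against 22.8% of all genes, 11.8% on that side and 11% on the lower side. That member was Gngt2, at 26.6 to 30.1 CPM against 20.8 to 22.5 CPM in control, with a log2 difference of 0.39 (SE 0.10, 95% interval 0.18 to 0.61, edgeR adjusted p = 0.0820). Other fits called it: without the count filter (0.0037), in a fit of these 2 groups alone (0.0197), with a term for tissue set (0.0359), without light damage 1 (0.0495) or light damage 3 (0.0293), and without light damage 3 and A74 1 together (0.0376). These are 6 of 17 alternatives. For Gnb3, its beta partner, the difference was 0.13 (edgeR adjusted p = 0.590). It was 0.26 without A74 1 (0.0854) and 0.26 and called without light damage 3 and A74 1 together (0.0198).

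For the other members the log2 differences from control, none of them called, were 0.03 for Opn1mw, -0.10 for Opn1sw, 0.14 for Arr3, 0.04 for Gnat2, 0.04 for Pde6c, 0.16 for Pde6h, -0.32 for Cnga3 and -0.04 for Cngb3. No cone-to-rod ratio separated these groups, with a median difference of 0.19. The summed cone CPM with A74 was 1641 ± 145 and the rod sum 30497 ± 304, and the cone share of both was 4.64, 5.29 and 5.38%. The lowest of these, A74 library 1, is also the one of its group high in anterior tissue genes.

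Across the 9 libraries the members did not move as one. The closest pairs were Opn1mw and Arr3 (Pearson r = 0.79), Gnb3 and Pde6h (0.77), Cnga3 and Opn1sw (0.76), and Gngt2 and Pde6h (0.75). Opposite courses were seen between Cngb3 and Pde6h (-0.79) and between Gnb3 and Pde6c (-0.77). Each list was also reduced to the mean log2 CPM of its genes, each gene first scaled to its own mean and SD. Against these list means over the same 9 libraries, Gnb3 had an r of 0.90 with microglial markers and 0.42 with ON bipolar markers. Gngt2 had an r of 0.75 with microglial markers, and Opn1mw an r of 0.86 with the rod counterparts. These values are descriptions over 9 libraries that share groups, tissue makeup and scaling. Genes whose levels ran closest to the mean of the members were Pars2 (0.90), Etnppl (0.90), Ptp4a3 (0.89), Drd4 (0.88) and Klhdc2 (0.88).

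Per kilobase of exon in control, the order of the members was Gnb3 (202 CPM per kb, range 196 to 212), Arr3 (195, 171 to 242), Opn1sw (187, 181 to 200), Gnat2 (83.8), Opn1mw (70.1), Pde6h (21.8), Pde6c (14.6), Gngt2 (11.7), Cngb3 (4.85) and Cnga3 (3.97). The first 3 have overlapping ranges and cannot be ordered among themselves. The channel subunits, at 4.64 to 4.98 for Cngb3 and 3.27 to 4.60 for Cnga3, lie close to each other at the bottom. Lengths count every annotated exon base of a gene, whether or not it is used in retina. Pde6h has 5940 such bases and Opn1mw 1244, so the place of Pde6h below Opn1mw depends on that length.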

How the data were processed

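The authors deposited raw gene counts, whole numbers per gene and library, for 9 libraries of mouse retina. RSEM 1.3.1, Bowtie2, DESeq2 1.4.5 and GRCm39 are named, with no role, per the submitters' processing notes; the strand setting and annotation are not given there. If the counts are rounded RSEM estimates, reads shared between similar genes were split by a model. Low genes were removed with filterByExpr (minimum count 10), libraries were scaled by TMM, and edgeR 4.0.16 (R 4.3.3, limma 3.58.1) fitted robust quasi-likelihood models on all 9 libraries. The main fit had no block. The replicate number, which the labels do not state to be a pairing, was a block in an alternative only. The 3 same-numbered pairs of control and light damage had deviations correlated at 0.116, 0.246 and 0.311, and control 2 with light damage 1 at 0.127. In both groups libraries 1 and 2 had Y-linked counts and library 3 had none, so the block also follows that split. The alternatives were DESeq2 1.42.0, no count filter, a fit of the 2 groups compared, and a prior count of 0.5 in place of 2 for the ratios. Others were blocks or terms for replicate, tissue set (high or low) and Y-linked counts (present or absent), and each library left out. The fit was also run on simulated counts that lacked the tissue, Y-linked and Xist differences of these libraries. No result here rests on that run. Named genes were all members, the rod counterparts, up to 3 called genes per list with the smallest adjusted p, and the 5 genes closest to the members' mean. Results of a few genes of the rod, shared and bipolar lists are not reported here, and those lists are counted without them. Members and lists were chosen with earlier results of these data known. Promoter letters come from RefSeq tables, exon lengths from GENCODE M21.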

Additional observations from a re-analysis of the deposited data

How the results depend on the processing

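Over all alternatives, 463 of the members' 510 values kept direction and side of the threshold, 20 became called, 14 lost a call and 13 reversed, none of the reversed being a called value; where a result changed, the cause was not tested. With DESeq2, A74 against control gave 171 genes higher and 151 lower over all genes. Without the count filter, 3 members and 1734 of all genes were higher in A74 against light damage. In A74 against control it gave 1 member higher, with 404 genes higher and 314 lower. The fit of 2 groups gave 1 member higher in A74 against control, and 319 and 239 genes. The replicate block gave 2 members and 2271 of all genes lower in light damage. In A74 against light damage it gave 2 members and 1660 genes higher. In light damage against control it changed no other member's call, and of the rod counterparts that of Pde6b. The tissue set term gave 1 member and 2444 genes lower in light damage, and 1 member and 106 genes higher in A74 against control. The Y-linked term gave 1 member and 2401 genes lower in light damage. In A74 against light damage it gave 0 members higher and 0 lower, with 337 genes higher and 408 lower. In A74 against control 63 genes were higher and 33 lower with this term. Leaving out light damage 3 and A74 1 together gave 1 member and 2897 genes lower in light damage. In A74 against control it gave 2 members higher, with 417 genes higher and 517 lower.

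Leaving out each library in turn, genes higher and lower ranged from 1473 to 2813 and 1345 to 2654 in light damage against control, 775 to 2320 and 933 to 2194 in A74 against light damage, and 15 to 253 and 6 to 163 in A74 against control. Members lower in light damage were 0 to 1, higher and lower in A74 against light damage 0 to 1 each, and higher in A74 against control 0 to 1. Ratios in A74 against control ranged from -0.065 to 0.22 for Arr3 to Sag and -0.067 to 0.53 for Pde6c to Pde6b. Uncalled values that reversed were Sag in A74 against light damage (-0.038 with the tissue term, -0.065 with the Y-linked term, -0.067 to 0.11 without 1 library), Opn1mw in A74 against control (-0.0066 and -0.054 with the same terms), Arr3 there (-0.082 with the Y-linked term) and Pde6c there (-0.15 without both libraries, -0.15 to 0.16 without 1). Without 1 library, ranges also crossed 0 for Cnga3 (-0.26 to 0.074) and Opn1sw (-0.19 to 0.069) in A74 against light damage, Gnat2 in A74 against control (-0.0075 to 0.10), and Gnat2 (-0.13 to 0.040), Gngt1 (-0.15 to 0.0796) and Opn1sw (-0.16 to 0.10) in light damage against control. With 3 libraries a group the printed 95% intervals limit what can be said of members not called, and Cnga3, with as few as 164 counts in a library, is the least precise by counting.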
